A study of Mus musculus with 16 samples.

Results

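The mouse T cell receptor gamma (Trg) locus holds the V, J and C gene segments from which the gamma chain of the gamma delta T cell receptor is assembled. Its open chromatin was followed across thymocyte development in a 190 kb window of chromosome 13 that holds the 15 annotated Trg segments, 7 V, 4 J and 4 C. Members were chosen by position alone. Every ATAC-seq peak of 4 stage lists that overlapped the window by at least 1 bp was taken, which gave 100 peaks. Joined where they shared at least 1 bp, these peaks formed 46 of the 185978 open regions of the genome.

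The thymocytes came from 4 wild-type C57BL/6J mice aged 9 weeks and were sorted into 4 stages, with 4 libraries per stage and 16 in all. The double negative (DN) gate took cells without CD4, CD8 and CD3, the double positive (DP) gate cells with CD4 and CD8, and the SP4 and SP8 gates CD3+ cells with CD4 or CD8 alone. Cells bound by a lineage antibody mixture were removed from every gate. That mixture held the antibody GL3 against the gamma delta T cell receptor, beside antibodies against B, myeloid, dendritic, NK and erythroid cells. In ATAC-seq a transposase cuts accessible DNA, and each cut end adds a tag of 100 bp centred on the cut. The authors pooled the 4 mice of a stage before calling peaks at 5% FDR, so each stage has 1 list, no value has a replicate error, and stages are described side by side without a test.

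Gamma chain genes are assembled in immature thymocytes, when the RAG recombinase cuts at the recombination signals beside a V and a J segment and the ends are joined. The locus is built of repeated V-J-C clusters, with enhancers 3′ of constant genes, and signalling through the IL-7 receptor and STAT5 is known to open it for recombination. DP, SP4 and SP8 cells mostly belong to the alpha beta lineage, in which rearranged gamma genes are largely silent.

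The sequences of the 4 enhancers that RefSeq places in the locus are shown because their peaks differed between stages and because all 4 hold the same pair of motifs. They are given 5′ to 3′ in mm10 (GRCm38). The gamma 1 stretch reaches 100 bases to each side of the DN summit, gamma 3 and gamma 2 are its copies, and gamma 4 is the part of that region that aligns with gamma 1. No DP or SP4 peak overlapped the gamma 4 stretch, and the DP peak at gamma 2 did not reach the motif pair. The gamma 2 and gamma 4 stretches extend beyond the annotated elements. The gamma 1 sequence is chr13:19219804-19220004, gamma 3 chr13:19272963-19273163 and gamma 4 chr13:19356311-19356500, all on the plus strand, and gamma 2 is chr13:19300386-19300586 on the minus strand. Capitals mark matches to RUNX (TGTGGT or TGCGGT, here also read as ACCACA or ACCGCA) and MYB (TAACTG, here read as CAGTTA).
gamma 1 enhancer: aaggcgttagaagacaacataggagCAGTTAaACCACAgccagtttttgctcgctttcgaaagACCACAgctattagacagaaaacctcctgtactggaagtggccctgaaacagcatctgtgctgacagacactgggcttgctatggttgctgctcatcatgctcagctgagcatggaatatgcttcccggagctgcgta
gamma 3 enhancer: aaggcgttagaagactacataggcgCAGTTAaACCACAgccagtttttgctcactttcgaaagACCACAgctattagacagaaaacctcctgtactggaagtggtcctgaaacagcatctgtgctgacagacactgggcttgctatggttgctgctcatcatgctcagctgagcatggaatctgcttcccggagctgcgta
gamma 2 enhancer: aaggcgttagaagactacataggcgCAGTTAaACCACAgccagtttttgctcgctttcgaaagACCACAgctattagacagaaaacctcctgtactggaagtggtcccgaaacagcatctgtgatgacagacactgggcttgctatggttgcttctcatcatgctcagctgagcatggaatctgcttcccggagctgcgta
gamma 4 enhancer: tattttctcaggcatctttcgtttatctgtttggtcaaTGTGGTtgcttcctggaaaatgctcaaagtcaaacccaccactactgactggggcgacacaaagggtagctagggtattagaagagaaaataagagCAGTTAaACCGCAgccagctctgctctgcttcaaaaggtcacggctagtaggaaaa

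The next sequence is the region that ranked first in the window at DP, SP4 and SP8, between Tcrg-V7 and Tcrg-V4 (chr13:19182331-19182531, plus strand). It reaches 100 bases to each side of the summit of those stages. It is followed by 3 copies of a sequence between the clusters, shown because the copies were open in a graded way. The first is centred on its DN summit and the others are aligned to it. The copy between Tcrg-C1 and Tcrg-V3 is chr13:19236387-19236587 and copy 1 between Tcrg-C3 and Tcrg-C2 is chr13:19283192-19283392, both on the plus strand, and copy 2 is chr13:19293184-19293383 on the minus strand. Capitals mark matches to E-box (CAGCTG or CACCTG), ETS (CAGGAA, here read as TTCCTG) and MYB (CAACTG).
region between Tcrg-V7 and Tcrg-V4: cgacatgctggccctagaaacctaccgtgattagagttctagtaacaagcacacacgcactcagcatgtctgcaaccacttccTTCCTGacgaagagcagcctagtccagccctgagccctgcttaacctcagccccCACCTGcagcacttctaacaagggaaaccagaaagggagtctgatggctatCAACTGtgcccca
copy between Tcrg-C1 and Tcrg-V3: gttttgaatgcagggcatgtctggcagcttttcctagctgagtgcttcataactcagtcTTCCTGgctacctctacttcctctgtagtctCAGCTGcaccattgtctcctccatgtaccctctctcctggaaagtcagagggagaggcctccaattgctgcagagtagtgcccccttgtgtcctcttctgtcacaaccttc
copy 1 between Tcrg-C3 and Tcrg-C2: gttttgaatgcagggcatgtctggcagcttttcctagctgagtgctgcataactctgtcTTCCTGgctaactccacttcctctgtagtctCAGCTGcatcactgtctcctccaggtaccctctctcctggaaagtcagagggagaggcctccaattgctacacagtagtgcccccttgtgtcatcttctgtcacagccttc
copy 2 between Tcrg-C3 and Tcrg-C2: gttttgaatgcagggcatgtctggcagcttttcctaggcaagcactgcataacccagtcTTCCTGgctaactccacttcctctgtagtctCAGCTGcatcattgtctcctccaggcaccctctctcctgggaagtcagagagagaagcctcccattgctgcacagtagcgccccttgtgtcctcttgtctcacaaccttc

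The recombination signals of the 7 V segments and of Trgj1 are shown because 5 of the V signals lay in open chromatin at DN. Each starts at the first base outside the coding segment, and capitals mark the heptamer (consensus CACAGTG) and the nonamer (consensus ACAAAAACC). In map order the V signals lie at chr13:19178493-19178530, chr13:19185507-19185545, chr13:19190930-19190968, chr13:19192726-19192764, chr13:19243302-19243340, chr13:19336534-19336572 and chr13:19340455-19340493, with Trgv2 on the minus strand and the others on the plus strand. The signal of Trgj1 is chr13:19210315-19210342 on the minus strand.
Tcrg-V7: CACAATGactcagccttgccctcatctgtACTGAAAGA
Tcrg-V4: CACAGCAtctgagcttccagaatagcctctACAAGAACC
Tcrg-V6: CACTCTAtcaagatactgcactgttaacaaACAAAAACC
Tcrg-V5: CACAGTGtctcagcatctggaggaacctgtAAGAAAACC
Tcrg-V3: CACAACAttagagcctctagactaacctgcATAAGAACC
Trgv2: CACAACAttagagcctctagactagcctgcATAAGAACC
Tcrg-V1: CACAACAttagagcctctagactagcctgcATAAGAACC
Trgj1: CACAGTGctcacagcttctACAAAAATC

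The locus was most widely open at DN. The window held 42 peaks at DN, 22 at DP, 18 at SP8 and 18 at SP4. These peaks covered 6.46% of the window at DN, 2.99% at DP, 2.99% at SP8 and 2.54% at SP4. Per 100 kb the window held 22.1 DN peaks against 6.10 over the rest of the autosomes, a ratio of 3.63. The same ratio was 2.66 at DP, 2.23 at SP8 and 2.03 at SP4, so the locus was denser in peaks than the autosomes at each stage and by the widest margin at DN. Among 245924 autosomal windows of the same length, the locus lay at percentile 95.9 for DN peaks, 85.6 for DP, 78.3 for SP4 and 81.5 for SP8 peaks.

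**Figure D1:**
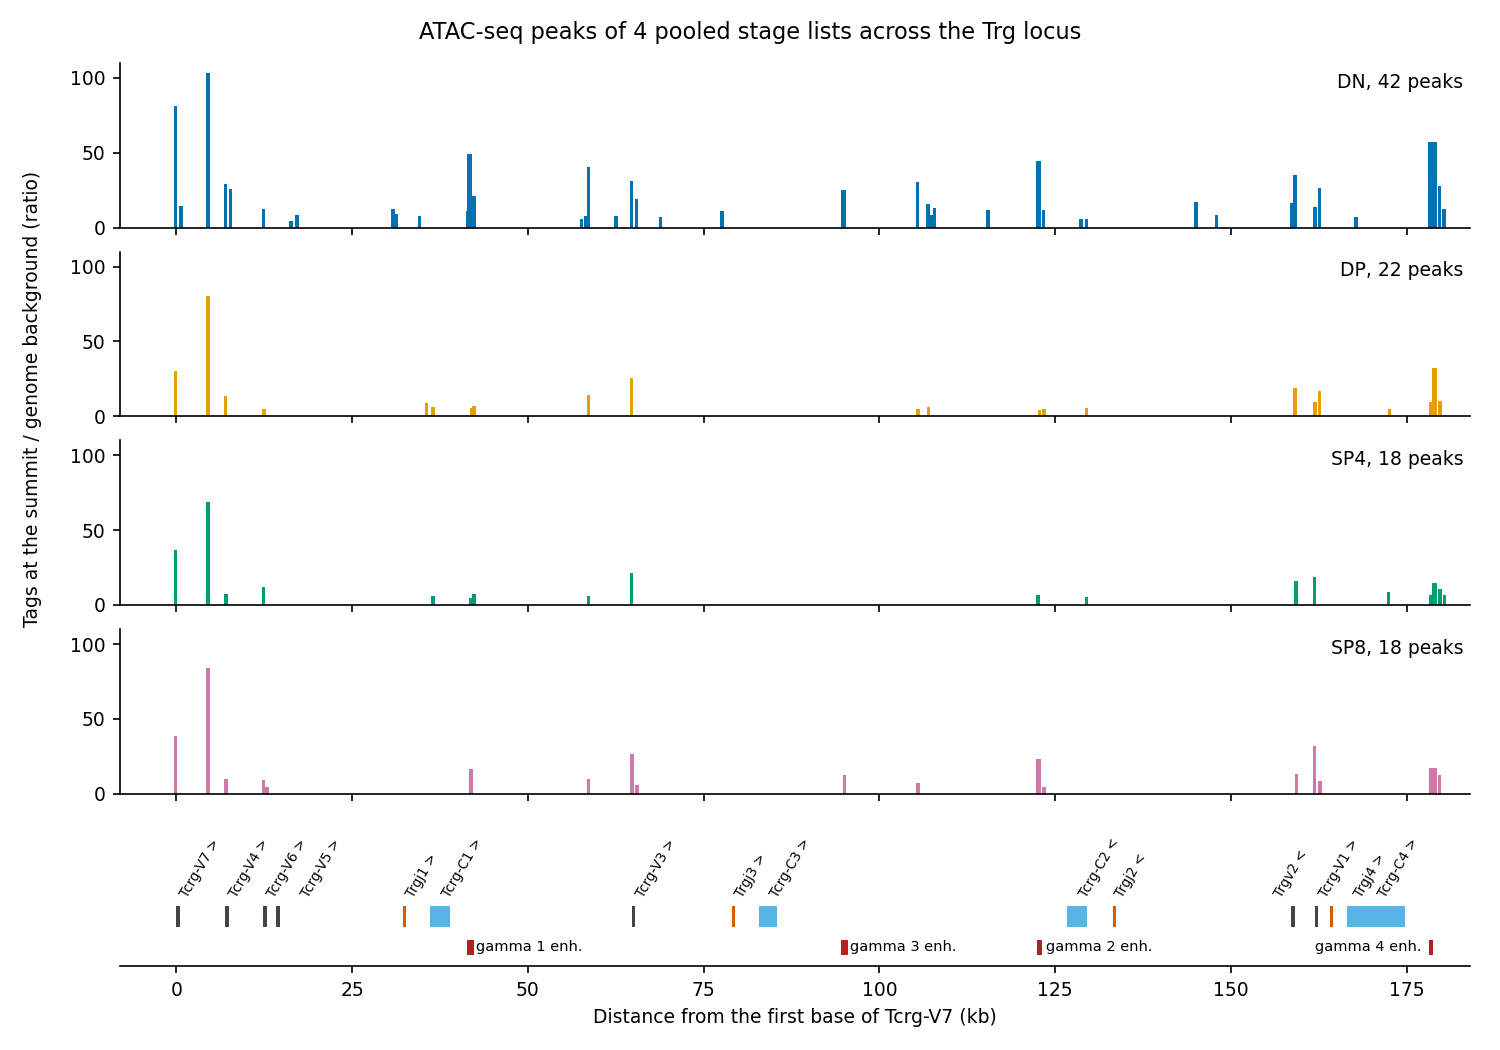
Peaks of the Trg window in each of the 4 stage lists (x axis, distance from the first base of Tcrg-V7 in kb; y axis, tags at the summit over the stage's genome background, a ratio), with V segments in black, J in orange, C genes in blue and enhancers in red below, and arrowheads for the strand. DN has 42 bars along the whole window, and DP, SP4 and SP8 have 22, 18 and 18.

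Read by region, 42 of the 46 regions were called at DN (91.3%, 95% Wilson interval 79.7 to 96.6), against 75.7% of all regions of the genome. DP called 21 locus regions (45.7%, interval 32.2 to 59.8, against 53.9% of all), SP4 called 17 (37.0%, 24.5 to 51.4, against 58.3%) and SP8 called 18 (39.1%, 26.4 to 53.5, against 53.0%). Regions called at DN only numbered 21 (45.7%, interval 32.2 to 59.8, against 21.7% of all regions). The other single-stage calls were few, and the interval of each held the share of all regions, with 1 region at DP only (2.17%, 0.385 to 11.3, against 5.17%), 0 at SP4 only (0 to 7.71, against 7.39%) and 1 at SP8 only (2.17%, 0.385 to 11.3, against 4.21%). The 12 regions called at all 4 stages made up 26.1% of the locus (15.6 to 40.3) and 34.1% of all regions. Each share counts the DN-only regions in its total, so a surplus of those lowers the shares of the later stages. Among the 25 locus regions called at a later stage, DP called 84% (65.3 to 93.6, against 68.9% of such regions in the genome), SP8 72% (52.4 to 85.7, against 67.6%) and SP4 68% (48.4 to 82.8, against 74.4%), and each interval held the share of the genome. That count was added after the shares had been seen. The DN list is the longest, with 150139 peaks against 104411 to 115074 in the others. With the same number of peaks taken from the top of each list by q-value, 12 of 37 locus regions were DN only (32.4%), against 11.1% of all regions, and 31 of 37 were called at DN (83.8%), against 63.3%.

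**Figure D2:**
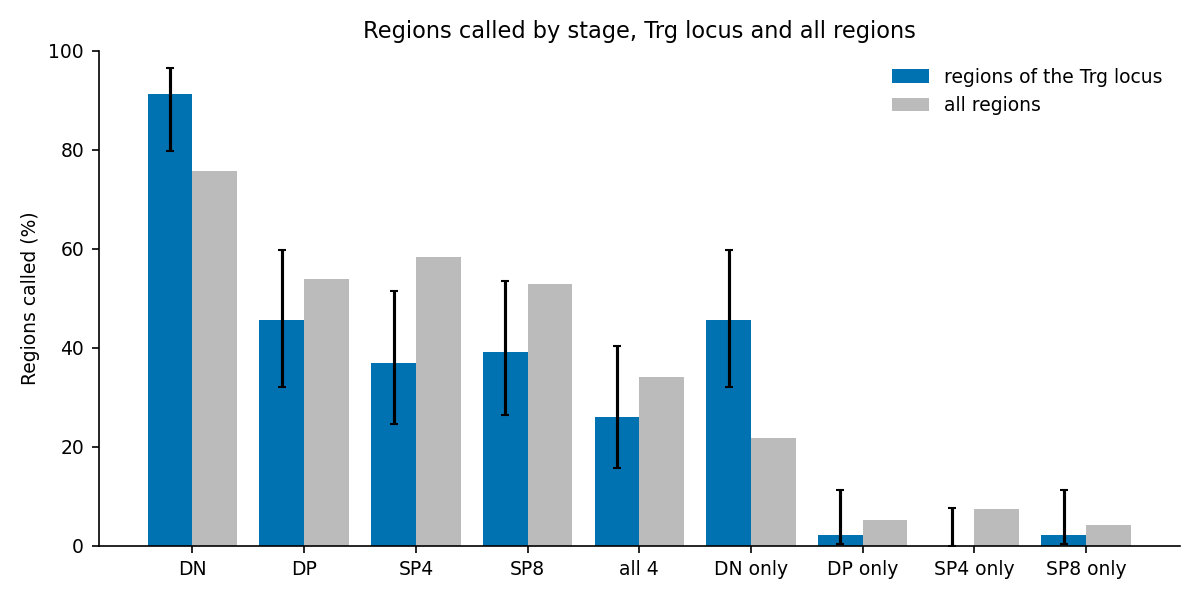
Share of regions called by stage, throughout, and at 1 stage alone (y axis, percent) for the 46 regions of the Trg locus with 95% Wilson intervals and for the 185978 regions of the genome. The locus bar stands above the genome bar for DN (91.3% and 75.7%) and DN only (45.7% and 21.7%). All bars share 1 total that includes the DN-only regions.

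Peak height is given in 2 ways. The deposited fold enrichment is the tags at the summit over the local background, each with 1 tag added, and the local background is the larger of the genome background and the tags of the surrounding 10 kb. The second measure is the number of tags at the summit, recovered from fold enrichment and p-value, divided by the stage's genome background of 3.51 tags per 100 bp at DN, 3.28 at DP, 3.58 at SP8 and 3.22 at SP4. It is called the summit height below, and its intervals, like those of its ratios between stages, are exact intervals at 95% that cover counting error only, not differences between mice. Library depth is not given in the lists, and the genome backgrounds, within 3.22 to 3.58, stand in for it.

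The 2 measures differ at this locus, where the DN signal around some peaks was itself high. The local background of DN peaks had a median of 1.97 times the genome background, against 1.66 times for all DN peaks, and reached 6.69 times between Tcrg-V7 and Tcrg-V4. The highest local background in the window was 3.34 times the genome level at DP, 2.91 times at SP4 and 3.27 times at SP8. Above the genome level stood 36 of the 42 DN peaks (85.7%, interval 72.2 to 93.3, against 73.7% of all DN peaks), 10 of 22 DP peaks (45.5%, 26.9 to 65.3, against 72.7%), 9 of 18 SP4 peaks (50%, 29.03 to 70.97, against 71.9%) and 10 of 18 SP8 peaks (55.6%, 33.7 to 75.4, against 73.98%). The intervals of DN and SP8 held the share of their list, and those of DP and SP4 lay below it. The DN background was raised from Tcrg-V7 to Tcrg-V4, at the gamma 1 and gamma 2 enhancers, from Trgv2 to Tcrg-V1, and from the gamma 4 enhancer to the end of the window, where it reached 6.55 times the genome level. Of the 12 regions called at all 4 stages, 11 were highest at DN by summit height, and the exception, the 5′ region of Tcrg-V1, was highest at SP8. By percentile of fold enrichment within each list the same 12 regions were highest at DN in 4, at DP in 4, at SP4 in 2 and at SP8 in 2. The same counts for the regions of the genome called at all 4 stages are not given here.

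**Figure D3:**
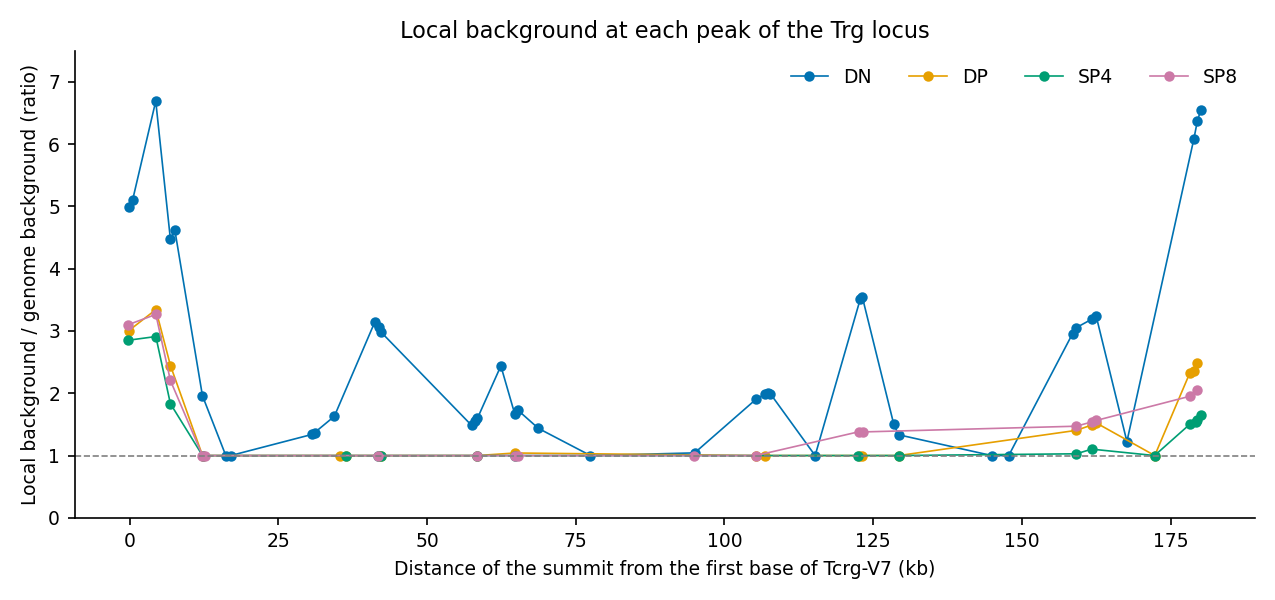
Local background at each peak of the window as a multiple of the stage's genome background (y axis, ratio; x axis, distance of the summit from the first base of Tcrg-V7 in kb; the dashed line is the genome level). DN rises to 6.69 near the left end and to 6.55 at the right end, and DP, SP4 and SP8 do not pass 3.34.

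V segments supply the variable part of the gamma chain, and 6 of the 7 overlapped a joined region that was called at all 4 stages. Counted by the peaks of a stage itself, 5 of 7 were overlapped at DN, 5 at DP, 5 at SP8 and 4 at SP4, because some peaks of these regions ended 5′ of Tcrg-V4, Tcrg-V6 or Tcrg-V1. This count was added after the peaks had been seen. The exception was Tcrg-V5, whose nearest region lay 1382 bp away. Tcrg-V5, like Tcrg-V6, is known for its rearrangement in the fetal thymus. Each of the 6 open V segments had a region over its first exon and the sequence 5′ of it, where its promoter lies, and those 6 regions were called at all 4 stages. The 5′ region of Tcrg-V7 (chr13:19177671-19178182) was the highest of them at DN by summit height, with a summit height of 81.5 (72.3 to 91.5). At the later stages it stood at 30.5 (DP), 37.0 (SP4) and 38.5 (SP8), less than the DN value, and the intervals of SP4 and SP8 overlapped that of DP. Its neighbour Tcrg-V4 was likewise highest at DN, 28.8 (23.4 to 35.0), with 13.4 at DP, 9.77 at SP8 and 7.15 at SP4.

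Tcrg-V3, Tcrg-V6 and Trgv2 were highest at DN by summit height and not by fold enrichment. The 5′ region of Tcrg-V3 (chr13:19242502-19242921) had summit heights of 31.1 at DN, 25.6 at DP, 26.5 at SP8 and 21.1 at SP4, and the ratio of DN to each was 1.21 (0.903 to 1.63) for DP, 1.17 (0.881 to 1.56) for SP8 and 1.47 (1.08 to 2.02) for SP4, above 1 beyond counting error for SP4 alone. Tcrg-V6 had the lowest DN value of the 6, 12.5 (9.11 to 16.8), which overlapped SP4 at 11.8 and SP8 at 9.49 and stood above DP at 4.89 (2.79 to 7.93). Trgv2 lies on the minus strand, like Trgj2 and Tcrg-C2. It went from 35.1 (29.1 to 41.8) at DN to 18.6 at DP, 13.4 at SP8 and 15.8 at SP4. By fold enrichment Tcrg-V3 was highest at SP8, 20.95 against 16.1 at DN, its lowest stage. Tcrg-V6, 9.24 against 5.71, and Trgv2, 12.1 against 10.6, were highest at SP4.

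Tcrg-V1 went the other way. Its 5′ region (chr13:19339658-19340039) had a summit height of 13.7 (10.1 to 18.1) at DN, 9.47 (6.43 to 13.4) at DP, 19.0 (14.5 to 24.3) at SP4 and 31.8 (26.3 to 38.2) at SP8. SP8 was thus the highest stage by an interval that overlapped no other, and the fold enrichment gave the same top stage, 17.6 at SP8 against 13.6 at SP4, 5.43 at DP and 4.01 at DN. The ratio of DN to SP8 was 0.430 (0.30 to 0.607), at percentile 6.07 of 79001 regions called at both stages. No other locus region called at DN and SP8 had a ratio of DN to SP8 below 1.

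**Figure D4:**
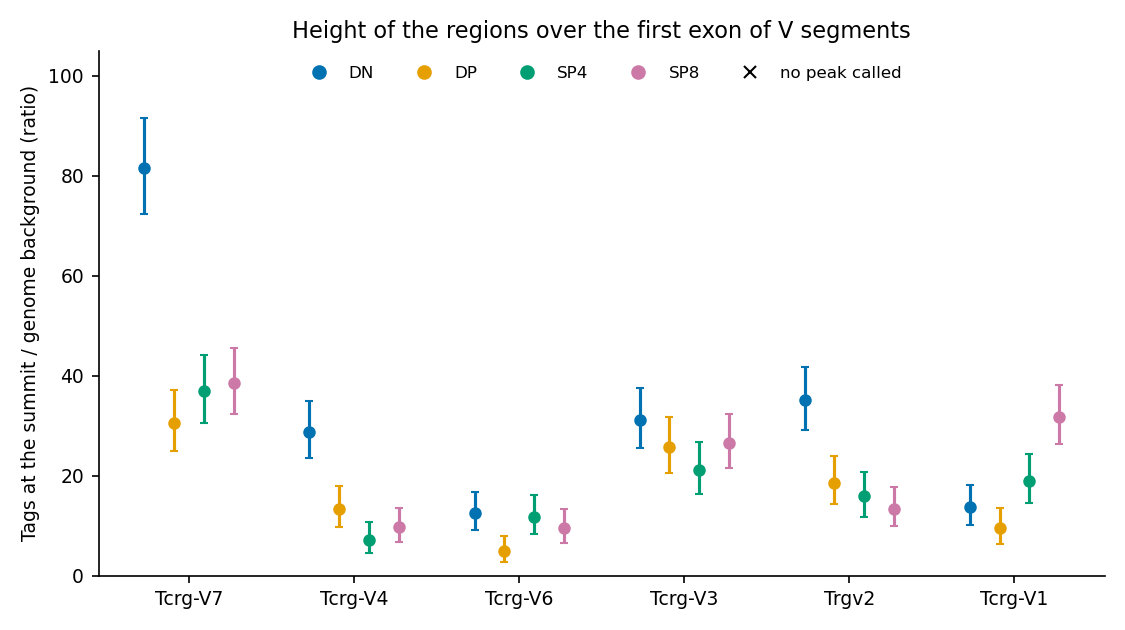
Summit height over genome background (y axis, ratio) of the regions over the first exon of 6 V segments at DN, DP, SP4 and SP8, with exact Poisson 95% intervals of the tag counts. DN is highest for Tcrg-V7 (81.5), Tcrg-V4 (28.8), Tcrg-V3 (31.1), Tcrg-V6 (12.5) and Trgv2 (35.1), and SP8 is highest for Tcrg-V1 (31.8).

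The 3′ ends of V segments, where the recombinase cuts, were open at fewer stages than the promoters. A peak overlapped the recombination signal of 5 of 7 V segments at DN (Tcrg-V7, Tcrg-V4, Tcrg-V3, Trgv2 and Tcrg-V1), 1 at DP (Tcrg-V1), 2 at SP8 (Tcrg-V3 and Tcrg-V1) and 0 at SP4. These elements were taken up after the peaks had been seen. The DN summit lay inside the signal itself at Tcrg-V7, Tcrg-V3 and Trgv2, 27 bp from it at Tcrg-V1 and 72 bp from it at Tcrg-V4. Fold enrichments at DN were 2.70 for Tcrg-V7, 5.34 for Tcrg-V4, 9.63 for Tcrg-V3, 5.10 for Trgv2 and 7.52 for Tcrg-V1. Trgv2 and Tcrg-V1 carry the same 39 bases as signal, and at DP a peak was called at Tcrg-V1, with a fold enrichment of 9.33, and not at Trgv2. The 5 open DN signals differ from the consensus heptamer at 1 to 3 bases and from the consensus nonamer at 1 to 4, and the Tcrg-V5 signal, which has the consensus heptamer, had no peak at any stage.

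J segments, to which the V segments are joined, held no region at any of the 4 stages. The nearest region was 1140 bp from Trgj1, 1406 bp from Trgj3, 3863 bp from Trgj2 and 1500 bp from Trgj4, and no peak overlapped any of the 4 J signals. The signals of Trgj1, Trgj2 and Trgj3 are the same 28 bases. Upstream of Trgj1 and of Trgj3, however, lay copies of a shared sequence that were open at DN only (chr13:19208600-19208934, fold enrichment 7.89, and chr13:19255376-19255711, 8.65). A further copy, 10688 bp from Trgv2, was open at DN only as well (chr13:19325730-19325885, 6.87).

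Constant genes encode the part of the gamma chain that anchors it in the membrane, and 3 of the 4 overlapped regions, with fold enrichments of 3.18 to 6.87. At Tcrg-C1 the region over exon 1 (chr13:19214280-19214433) was called at DP, with a fold enrichment of 5.15 and 21 tags, and at SP4, with 4.98 and 20 tags. It was called neither at DN nor at SP8. At Tcrg-C2 the region over exon 1 (chr13:19307235-19307382) had fold enrichments of 3.87 at DN, 4.68 at DP and 4.50 at SP4, and an intron (chr13:19306443-19306572) had a DN peak of 3.18. The summit heights of the Tcrg-C2 exon, 5.98 (3.70 to 9.15) at DN, 5.80 at DP and 5.59 at SP4, overlapped throughout. At Tcrg-C4 an intronic region (chr13:19345590-19345860) was called at DN, with a fold enrichment of 4.91, and a region at exon 3 (chr13:19350151-19350539) at DP, 3.98, and at SP4, 6.87. Summed over the constant genes, 2 of 4 held a region at DN, 3 at DP, 0 at SP8 and 3 at SP4. Tcrg-C3 held none, and its nearest region lay 5173 bp away.

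The exons of Tcrg-C1 and Tcrg-C2 are near copies, and the authors kept uniquely mapped reads. Exon 1 of Tcrg-C1 was 97.3% identical to that of Tcrg-C2 and 95.8% to that of Tcrg-C3, while Tcrg-C4 stood apart with 82.1% to Tcrg-C1. Stretches of 75 bases with a second exact copy in the genome started at 7.27% of the positions of exon 1 in Tcrg-C1, 6.06% in Tcrg-C2, 11.5% in Tcrg-C3 and 0 in Tcrg-C4. Over the window such stretches started at 14.5% of positions, with 6.59% inside the regions and 15.05% outside them. The enhancers held more of it than the regions as a whole, with 27.2% at gamma 1, 29.5% at gamma 2 and 37.7% at gamma 3, and gamma 4 held none. At the 3′ end of Tcrg-V1 the share was 44.5%. The part of repeated sequence in the missing peaks of Tcrg-C3, or of gamma 3 at DP and SP4, was not tested.

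Enhancers drive transcription and recombination of the clusters, and the peaks over the 4 curated ones were highest at DN and next at SP8 by summit height. A peak overlapped 4 of 4 at DN, 3 of 4 at DP, 3 of 4 at SP4 and 4 of 4 at SP8. The enhancers were taken up after the annotation and the peaks had been seen. At gamma 1, 3′ of Tcrg-C1 (chr13:19219417-19220416), the highest summit stood at 49.3 (42.2 to 57.2) at DN, 7.02 (4.45 to 10.5) at DP, 7.15 (4.53 to 10.7) at SP4 and 16.8 (12.8 to 21.6) at SP8. The intervals of DP and SP4 overlapped, SP8 stood between them and DN, and DN exceeded DP by a ratio of 7.02 (4.53 to 11.4). The DP and SP4 values come from a separate region in the same enhancer (chr13:19220128-19220269), where DN stood at 20.8 (16.3 to 26.2). SP8 had no peak in that separate region. In the region of the DN summit DP stood at 5.80 and SP4 at 4.66.

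Gamma 2, 3′ of Tcrg-C2 (chr13:19300501-19300808), gave the same order, with 44.5 (37.8 to 52.0) at DN, 4.27 (2.34 to 7.17) at DP, 6.52 (4.04 to 9.97) at SP4 and 23.2 (18.5 to 28.7) at SP8. The DN and SP4 summits lay outside the annotated element, in peaks that overlap it. The ratio of DN to DP, 10.4 (6.02 to 19.5), lay at percentile 99.8 of 83779 regions called at both stages. Gamma 3 (chr13:19272620-19273526), whose region lay 9065 bp from Tcrg-C3, was called at DN, 24.8 (19.9 to 30.6), and at SP8, 12.3 (8.93 to 16.5), and at neither DP nor SP4. A peak at DN and SP8 alone was seen for 2 locus regions (4.35%, against 2.11% of all regions), the other being the 3′ end of Tcrg-V3. Gamma 4, 3′ of Tcrg-C4 (chr13:19356171-19356476), stood at 57.3 (49.6 to 65.8) at DN, 9.77 (6.68 to 13.8) at DP, 6.83 (4.28 to 10.3) at SP4 and 17.3 (13.3 to 22.2) at SP8. Its DN peak spanned 1337 bp with the summit outside the annotated element, whereas the DP and SP4 lists had a separate, higher peak beyond it, with summit heights of 32.1 and 14.9 and fold enrichments of 12.2 and 8.26. The ratio of SP8 to DP was 1.77 (1.14 to 2.81) for the peaks over the element and 0.540 (0.388 to 0.746) for the whole gamma 4 region, where the order by summit height was DN, DP, SP8 and SP4. Fold enrichment gave another order at 2 of the enhancers. Gamma 2 was highest at SP8, 14.1 against 11.8 at DN, and the gamma 4 region was highest at DP, 12.2, and lowest at SP8, 7.88.

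**Figure D5:**
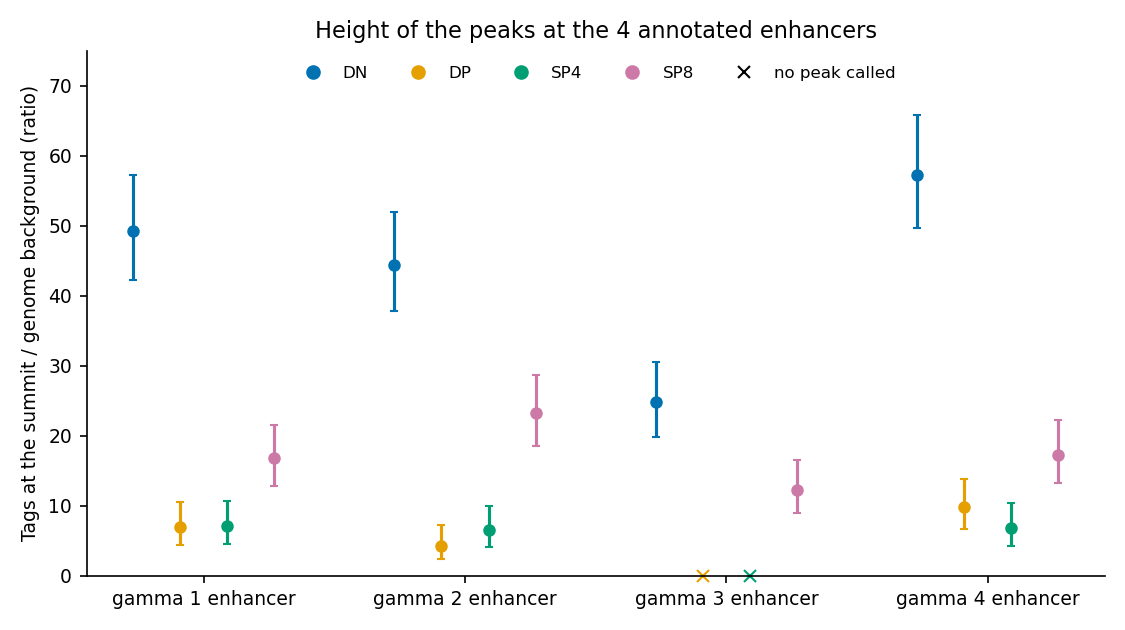
Summit height over genome background (y axis, ratio) of the highest peak that overlaps each curated enhancer at DN, DP, SP4 and SP8, with exact Poisson 95% intervals of the tag counts and crosses where no peak was called. At gamma 2 DN and SP8 stand at 44.5 and 23.2 and DP and SP4 at 4.27 and 6.52. At gamma 4 the DN summit lies outside the element, near a separate DP peak of 32.1 that does not overlap it and is not drawn.

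Smaller regions flanked the enhancers within 5 kb 3′ of the constant genes. Between Tcrg-C1 and gamma 1 a region (chr13:19219176-19219304) was called at DN alone, with a summit height of 11.1 (7.90 to 15.2). Beside gamma 2 a region (chr13:19301133-19301394) stood at 11.97 (8.63 to 16.2) at DN, 5.19 at DP and 4.75 at SP8. Beyond gamma 4 a region (chr13:19357449-19357617) was called at all 4 stages, with summit heights of 27.6 (22.4 to 33.7) at DN, 10.4 at DP, 12.3 at SP8 and 10.9 at SP4. All 3 were lower at DN than the enhancer they flank.

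The 2 mature stages differed at the enhancers. SP8 exceeded SP4 by a ratio of 2.34 (1.43 to 3.97) at gamma 1, 3.55 (2.18 to 6.04) at gamma 2 and 2.53 (1.54 to 4.33) at gamma 4. The summits compared were the same base at gamma 4 and different bases at gamma 1 and gamma 2. At gamma 1 the SP4 summit lay in the separate region, where SP8 had no peak. For the gamma 1 and gamma 2 regions as a whole the ratios were 3.59 and 3.55, each at percentile 99.3 of 81295 regions called at both stages, while the gamma 4 region as a whole had 1.16 (0.784 to 1.73). Locus regions called at SP8 and not at SP4 numbered 6 of 46, where 9.24% of all regions had that pattern, and those called at SP4 and not at SP8 numbered 5 of 46, against 14.6%. Among the 12 regions called at both stages the median ratio of SP8 to SP4 was 1.24, against 0.998 over all regions. Other comparisons of summit height set DN apart. The ratio of DN to DP was above 1 in 18 of 18 locus regions called at both, against 58.3% of all regions, and in 15 of the 18 the interval lay above 1. The median was 2.44 against 1.11 over all regions. The median ratio of DN to SP4 was 2.21 against 1.0, and that of DN to SP8 was 2.52 against 0.971.

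RUNX and MYB are transcription factors of developing T cells, and their motifs stood side by side in the enhancers. A RUNX match, 1 base and a MYB match in a row were found in 4 of the 46 locus regions, the regions of gamma 1, gamma 2, gamma 3 and gamma 4, against 56 of 185978 regions of the genome (0.0301%). That count reads whole regions, and the enhancer regions are 626 to 1342 bp wide where the median region has 231 bp. The summit window reaches 100 bases to each side of the summit with the highest percentile of fold enrichment. In it the pair stood in 3 locus regions, without gamma 4, and in 47 regions of the genome. At gamma 2 that is the SP8 summit. The pair there lies further than 100 bases from the DN summit (19300880), the highest by summit height. The pair was looked for after the sequences had been seen, and gamma 1, gamma 2 and gamma 3 share it as copies of each other. Their regions were 98.3% identical between gamma 1 and gamma 3 and 95.1% between gamma 1 and gamma 2, whereas gamma 4 aligned to gamma 1 over 195 columns at 76.9%. A match is a stretch of letters, and binding was not measured.

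Single motifs were searched on both strands over the whole locus. The 95% Wilson interval of each motif's share held its share in the genome, around the summit and over whole regions. In the summit window, E-box letters (CAGCTG or CACCTG) stood in 22 of 46 regions (47.8%, interval 34.1 to 61.9, against 37.1% of all regions). GATA letters (AGATAA or TGATAA) stood in 9 (19.6%, against 13.2%). MYB letters (TAACGG or TAACTG or CAACGG or CAACTG) stood in 12 (26.1%, against 21.1%), ETS letters (CAGGAA or CCGGAA) in 19 (41.3%, against 38.8%) and STAT5 letters (TTCNNNGAA) in 4 (8.70%, against 5.43%). RUNX letters alone stood in 8 (17.4%, interval 9.09 to 30.7, against 28.3%), and the 4 enhancer regions, read whole, held 3 to 5 matches each. These 4 wide regions also each held 1 STAT5 and 1 GATA match, and matches to MYB, E-box and ETS letters. TCF7/LEF1 letters (CTTTGAA or CTTTGAT) stood in 4 (8.70%, against 9.40%), the CTCF consensus in 0 (against 3.03%) and the heptamer CACAGTG in 1 (2.17%, against 8.43%). A STAT5 match can overlap an ETS match. Over whole regions MYB letters stood in 28.3% of the locus and 28.8% of all regions and ETS letters in 45.7% and 45.9%. The others, in the same order, were E-box 50% and 45.2%, GATA 28.3% and 18.2%, and STAT5 15.2% and 8.09%. RUNX stood in 21.7% and 35.1%, TCF7/LEF1 in 8.70% and 12.6%, CTCF in 0 and 3.24% and the heptamer in 4.35% and 11.8%.

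The region between Tcrg-V7 and Tcrg-V4 (chr13:19182302-19182766), in an intron of Gm31887 and 2208 bp from Tcrg-V4, was the highest of the window by summit height at each stage. Its summit heights were 103 (93.1 to 115), 80.6 (71.2 to 90.9), 68.97 (60.2 to 78.7) and 84.3 (75.1 to 94.4) at DN, DP, SP4 and SP8. By summit height DN was thus the highest stage, while the deposited fold enrichments put DN last, with 14.9 at DN, 22.2 at DP, 23.9 at SP8 and 21.5 at SP4. The surrounding 10 kb held 2348 tags at DN against 1095 at DP, 1170 at SP8 and 937 at SP4. By percentile of fold enrichment this region ranked first in the window at DP (96.1), SP4 (94.1) and SP8 (95.7), followed at those stages by the 5′ region of Tcrg-V3 (93.5, 87.6 and 93.0). The gamma 4 region came next at DP (81.4) and the 5′ region of Tcrg-V1 at SP4 (82.3) and SP8 (88.6). At DN the first 3 were the copy between Tcrg-C1 and Tcrg-V3 (96.1), gamma 3 (93.4) and the 5′ region of Tcrg-V3 (89.8).

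That copy (chr13:19236383-19236665) belongs to the 3 related sequences printed above. It was called at all 4 stages, with fold enrichments of 21.8 at DN, 11.2 at DP, 8.08 at SP8 and 4.74 at SP4. Copy 1 between Tcrg-C3 and Tcrg-C2 was called at DN (14.2), DP (3.98) and SP8 (5.67), and copy 2 at DN alone (9.31). DN was thus the highest stage of each copy, and the copies differed in how many later stages kept a peak.

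Such copies were common. Of the 46 regions, 30 had a copy elsewhere in the window at 75% identity or more over at least 100 bases, and for 20 a copy also held a region. Linked by such copies, 22 regions formed 8 families. Of the 22, 21 were called at DN, beside 42 of the 46 locus regions (91.3%) and 75.7% of all regions. Every region was called at DN in 7 of the 8 families, the exception being the constant exons. With a DN share so high over the locus, neither count sets the families apart. The same set of stages throughout was seen in 2 families. Those were the family upstream of Trgj1 and Trgj3, DN only, and the 5′ regions of Tcrg-V3, Trgv2 and Tcrg-V1, called at all 4 stages. Members of a family share sequence and are not independent.

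The 21 regions called at DN only were lower by fold enrichment than the other DN regions of the locus. The same comparison for the genome is not given here. Their fold enrichment ran from 2.70 to 13.7 with a median of 4.91, against a median of 9.04 for the 21 DN regions also called elsewhere. The highest by fold enrichment, chr13:19322810-19323167, lay 11506 bp from Trgj2 in sequence without a copy in the window. By summit height the DN-only region at the 3′ end of Tcrg-V4 stood above it, 25.9 against 17.4. The DP-only region (chr13:19213384-19213570, fold enrichment 7.25) lay 533 bp from Tcrg-C1, and the SP8-only region (chr13:19190666-19190765, 3.71) lay in Tcrg-V6. No region was called at SP4 only.

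Genes that work with Trg were read beside the shares of all regions, which were 75.7% at DN, 53.9% at DP, 53.0% at SP8 and 58.3% at SP4. The partners of the gamma chain and its kin (Cd3e, Cd3d, Cd3g, Cd247, Trdc, Trac, Trbc1 and Trbc2) held 62 regions, and Cd247 alone held 46. Of the 62, 72.6% were called at DN, 61.3% at DP, 69.4% at SP8 and 69.4% at SP4. Trdc, the constant gene of the delta chain, had 3 regions at DN, 1 at DP, 3 at SP8 and 2 at SP4, and Trac, that of the alpha chain, 0, 1, 1 and 1. Rag1, Rag2 and Dntt, the recombination genes, held 16 regions, with 68.8% at DN, 62.5% at DP, 62.5% at SP8 and 56.2% at SP4. A list of 24 factors and receptors known at Trg or in the gamma delta lineage held 435 regions, 68.97% of them called at DN, 57.9% at DP, 62.3% at SP8 and 59.5% at SP4. Within it Zbtb16, a factor of innate-like T cells, had 31 regions at DN and 15 to 18 at the later stages, while Runx3, a factor of the CD8 lineage, had 22 at SP8 and 13 to 15 at the others. Il7r had 2 at DN, 2 at DP, 3 at SP8 and 6 at SP4. Zbtb16, Runx3 and Il7r were chosen after their values were seen.

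The labels of the sorted stages were read against a peak over the start site of marker genes. The 6 T lineage markers (Cd3e, Cd3d, Cd3g, Cd2, Thy1 and Lck) had one at each stage, as did Il2ra, Kit and Ptcra, markers of DN cells, and Cd4, Cd8a and Cd8b1, so these start sites did not tell the stages apart. Of the gamma delta T cell markers reported here, Sox13 and Blk had such a peak at each stage, and Trdc, Il17a and Il23r had none at any stage. Of the markers of other cells reported here, Itgam and Epcam had one at each stage, Klra1 at each stage but DP and Lyz2 at DN alone, and Cd79a and Ncr1 had none. The share of the DN peaks of the locus that comes from gamma delta or other cells was not tested.

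Protein-coding genes with a like pattern were looked up by the shares of their regions called at DN, DP, SP4 and SP8. Among 10304 genes with at least 10 regions, the nearest to the locus were Slc9a5 (distance 0.0259), Ctns, Ifi203 and Lrrc49 (0.0286 each) and Otof (0.0340), where the median gene had a distance of 0.436. Slc9a5 had 20 regions, of which 90% were called at DN, 45% at DP, 40% at SP8 and 35% at SP4.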

How the data were processed

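ATAC-seq of 16 mouse thymocyte libraries, 4 per stage, was used as deposited peak lists. The authors aligned reads to mm10, kept unique pairs, sampled the libraries down to their median depth, pooled the 4 mice of a stage and ran MACS2 for peaks at 5% FDR. The authors deposited for each peak a whole-number score, the fold enrichment at the summit as a ratio, and the -log10 p and -log10 q values. The depth of each library is not in the lists. Members and lists were chosen with earlier results of these data known.

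Peaks were read and merged with Python 3.11.15, numpy 2.4.6, pandas 2.3.3 and numba 0.67.0. Sequences were aligned with blastn 2.17.0 and Biopython 1.88, intervals came from scipy 1.17.1, and figures were drawn with matplotlib 3.10.9. Segments came from GENCODE M21 and enhancers from RefSeq. Tags at the summit and local background were solved from fold enrichment and p-value, to a relative tolerance of 0.0001, and whole numbers came out for 99.997% to 99.999% of the peaks of a list. The solution and the merging were tested on simulated data, the merging against bedtools 2.31.1. Regions given with values were those at V, J or C segments or within 5 kb 3′ of a constant gene, the 3 highest by percentile at each stage, and those called at a single stage by range and highest. Outside this rule, values are also given for copies of shared sequences between the segments and for the region at an exon of Stard3nl. The genes named for likeness were the 5 with the smallest Euclidean distance among those with at least 10 regions within 20 kb. The gene lists were receptor partners, recombination genes, and factors and receptors, and the marker lists were T lineage, DN, DP and SP, gamma delta T and other cells, of which some genes are not reported here. No test was made between stages. Stricter q-values, equal list lengths, a narrower window and other joins and heights were tried as alternatives.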

Additional observations from a re-analysis of the deposited data

How the results depend on the processing

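No paired analysis was possible because the peaks were called on pooled mice, so mice could not be paired between stages and no mouse could be left out. Each main value was compared with its value under each alternative, and in all but 19 comparisons it stayed within its interval or within 1.5 times of its count. A value can enter more than 1 comparison. Among the 19 were the shares of the later stages, which without the DN-only regions in the total were 84% at DP, 72% at SP8 and 68% at SP4. A q-value limit of 0.001 moved none of the main values. With equal numbers of peaks from each list, DN coverage of the window was 5.64% and DN-only regions numbered 12, since the DN list was shortened most. In a window from the first to the last segment with 1 kb on each side, coverage was 6.04% at DN, 2.66% at DP, 2.43% at SP8 and 2.09% at SP4.

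The highest stage of the 12 regions called throughout depended on the height used. By percentile of q-value 10 were highest at DN, 0 at DP, 1 at SP8 and 1 at SP4, by percentile of summit tags 11 at DN, 0 at DP, 1 at SP8 and 0 at SP4, and by percentile among chromosome 13 peaks 2 at DP. The cause was not tested. With exact copies of 50 in place of 75 bases, 24.5% of the window was repeated. Percentiles of individual regions moved by more than their interval in 293 comparisons and stayed in 1. Summit tags, enhancers, recombination signals and copies were added after seeing the data, and so were their alternatives. With equal numbers of peaks, 4 of the 7 V signals had a DN peak, and at 90% identity 15 regions had a copy that held a region.

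Depth limits the absences. A region without a call can hold signal under the threshold, the tag counts of low peaks are near 20, and their intervals carry counting error alone.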

Other observations

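Between DP and SP4 the locus regions moved in both directions. The copy between Tcrg-C1 and Tcrg-V3 was lower at SP4 than at DP, with a ratio of summit heights of 0.411 (0.228 to 0.714), and so were the 5′ region of Tcrg-V4, 0.532 (0.307 to 0.90), and the gamma 4 region, 0.465 (0.323 to 0.660), the last between different summits. The 5′ regions of Tcrg-V6, 2.42 (1.32 to 4.64), and Tcrg-V1, 2.0 (1.28 to 3.19), were higher at SP4. The median ratio over the 16 locus regions called at both stages was 0.966, against 1.09 over all regions. These regions were chosen after their values were seen.

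At the edge of the window lay a region that overlaps an exon of Stard3nl (chr13:19358102-19358228). It held 44 tags at a DN summit inside the exon and 22 at an SP4 summit beyond it. Its fold enrichment of 1.88 at DN, at percentile 0.0326 of the list, was the lowest of the window, beside a local background of 6.55 times the genome level.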
